A study of Mus musculus with 21 samples.

Results

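The RNA levels of 10 genes that build the cytoskeleton and the cell contacts of simple epithelium were followed in the mouse uterus. The genes are the keratins Krt7, Krt8, Krt18 and Krt19, the adhesion molecules Epcam and Cdh1, the claudins Cldn3, Cldn4 and Cldn7, and the junction scaffold Tjp1. They were chosen by symbol, and all 10 were found among the 12791 genes listed for every library. No listed gene had fewer than 10 reads in any library, and all 10 members were tested. All libraries were made from the whole uterus of wild type mice of the inbred strain C57BL/6J, and all mice had received pregnant mare serum gonadotropin (5 or 7.5 units, not assigned to animals in the labels), a hormone that stimulates ovarian follicles, 48 hours before dissection. The aged mice were 60 to 75 or 79 weeks old, and the younger mice were 8 weeks or 5 weeks old. With each column of values taken as the sample its header names, there were 6 libraries of aged uteri, 7 of uteri at 8 weeks and 7 at 5 weeks. The question was how RNA levels of these genes differ between old and young uteri.

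Keratins form filaments only as pairs of a type I chain (Krt18, Krt19) and a type II chain (Krt7, Krt8), and they give epithelial sheets their mechanical strength. Cdh1, or E-cadherin, holds neighbouring cells together at adherens junctions, Epcam is an adhesion protein of the lateral membrane, and claudins form the strands of tight junctions that Tjp1, or ZO-1, links to actin. In the uterus these genes mark the epithelium that lines the lumen and the glands. Keratins are also made by the mesothelium on the outer surface, and Tjp1 by endothelium.

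Replicates 1 and 2 of each age form an earlier set of libraries, in which the aged mice were 60 to 75 weeks old, and replicates 3 to 7 form a later set, in which they were 79 weeks old. The labels name 2 RNA kits and 2 read lengths (60 and 150 bases) without assigning them, so within the aged group age and set cannot be told apart. Total reads, recomputed from the values, were 19100690 to 30689439 for the later set (14 libraries) and 12204573 to 14448283 for the earlier set (6 libraries). For 15 of the 20 columns the header names another sample than the one its file was deposited under, in 2 cases of another age: 5w replicate 3 lay in a file of an aged sample, and 8w replicate 3 in a file of a 5-week sample. Aged replicate 3 has no column under this reading and was not analysed here. The labels do not say in so many words that the libraries of a group come from separate animals, so p-values measure the spread between these samples. In whole tissue, fewer epithelial cells and less RNA per epithelial cell cannot be told apart.

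The promoter windows of the members were read because some members are close neighbours in the genome. Cldn4 and Cldn3 lie 39.3 kb apart on chromosome 5 with no other protein-coding gene between them, and Krt8 and Krt18 lie 23.7 kb apart on chromosome 15. RefSeq start sites on GRCm38.p6 were found for 8 of the 10 members (all but Cdh1 and Krt19), in 9 windows. Given here are the windows of Cldn4, of its neighbour Cldn3, of the upstream start of Cldn7 and of Epcam, each as the 250 bases before the start site, read along the gene. Capitals mark the GC box (GGGCGG or CCGCCC), bound by Sp factors, and the E-box CAGGTG or CACCTG, the sequence that the epithelial repressors Snai2 and Zeb1 recognise.
Cldn4 (chr5:134946935-134947184, minus strand): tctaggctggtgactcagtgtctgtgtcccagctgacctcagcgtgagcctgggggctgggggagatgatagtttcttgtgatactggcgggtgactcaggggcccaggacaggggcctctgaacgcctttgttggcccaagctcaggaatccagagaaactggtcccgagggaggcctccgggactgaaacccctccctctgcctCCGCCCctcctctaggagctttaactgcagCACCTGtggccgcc
Cldn3 (chr5:134985964-134986213, plus strand): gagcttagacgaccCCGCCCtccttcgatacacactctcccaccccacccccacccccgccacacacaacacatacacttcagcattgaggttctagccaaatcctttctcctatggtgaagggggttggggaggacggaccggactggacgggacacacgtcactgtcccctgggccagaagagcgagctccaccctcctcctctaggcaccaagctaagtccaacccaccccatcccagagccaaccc
Cldn7, upstream start (chr11:69964529-69964778, plus strand): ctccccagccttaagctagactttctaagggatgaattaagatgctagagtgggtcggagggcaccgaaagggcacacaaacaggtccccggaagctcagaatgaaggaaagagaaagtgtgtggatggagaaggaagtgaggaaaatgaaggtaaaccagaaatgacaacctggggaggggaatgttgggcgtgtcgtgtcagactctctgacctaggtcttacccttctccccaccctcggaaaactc
Epcam (chr17:87635729-87635978, plus strand): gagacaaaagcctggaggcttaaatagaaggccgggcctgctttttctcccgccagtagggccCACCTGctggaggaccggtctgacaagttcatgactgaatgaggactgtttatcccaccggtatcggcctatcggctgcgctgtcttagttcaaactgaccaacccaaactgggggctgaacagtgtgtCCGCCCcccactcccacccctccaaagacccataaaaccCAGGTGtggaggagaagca

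An E-box was present in 6 of the 9 windows, belonging to Krt7, Krt8, Krt18, Epcam, Cldn4 and the downstream start of Cldn7, against 17.2% of the 32851 windows in the RefSeq table. A GC box was present in 6 of the 9 windows, against 32.7% of all windows. The GC content of the 9 windows was 51.2% to 66.0%, against a median of 52.4% over all windows. The part of GC content in the motif counts was not tested. The window of the downstream Cldn7 start, which held 1 GC box and 2 E-boxes, overlaps annotated untranslated exons of Cldn7 and is counted but not printed, as are those of Krt8 and Krt18. The grainyhead-like motif AACNNGTT, read on both strands, was in none of the 9 windows and in 3.64% of all. Within neighbours the windows differed: Cldn4 held an E-box 14 bases before its start and Cldn3 held none, whereas Krt8 and Krt18 each held 1, at 111 and 214 bases. A match of letters describes the window and shows no binding.

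Read per length, as CPM divided by the kilobases of annotated exons, Krt19, Krt8 and Krt18 were the most abundant members. In CPM, the values of a library add up to 1000000. The geometric mean over the 20 libraries was 357 CPM per kb for Krt19, 306 for Krt8 and 279 for Krt18, followed by 210 for Epcam, 188 for Cldn3 and 112 for Cldn7. Krt7 and Cdh1 came next at 55.6 CPM per kb each, then Cldn4 at 22.6 and Tjp1 at 11.4. The annotated exons of Krt7 add up to 7.05 kb, against 1.44 to 1.96 kb for the other keratins, which lowers its value per kb. In CPM, Krt7 averaged 333 in aged uteri, 548 at 8 weeks and 601 at 5 weeks, against 574, 363 and 382 for Krt18. Neighbours in the order per kb mostly overlapped. Krt19 was above Krt8 in 11 of 20 libraries, Epcam above Cldn3 in 12, and Krt7 above Cdh1 in 10, whereas Cldn7 was above Krt7 and Cldn4 above Tjp1 in 19. Tjp1 was the lowest member in each aged and each 5-week library. Krt8 and Cldn3 share 5.16% and 3.18% of their exon bases with annotated transcripts of the opposite strand, and Krt7 1.09%, and the library kit keeps no strand. GENCODE also annotates a processed pseudogene of Krt8, whose reads may be split from it.

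**Figure D1:**
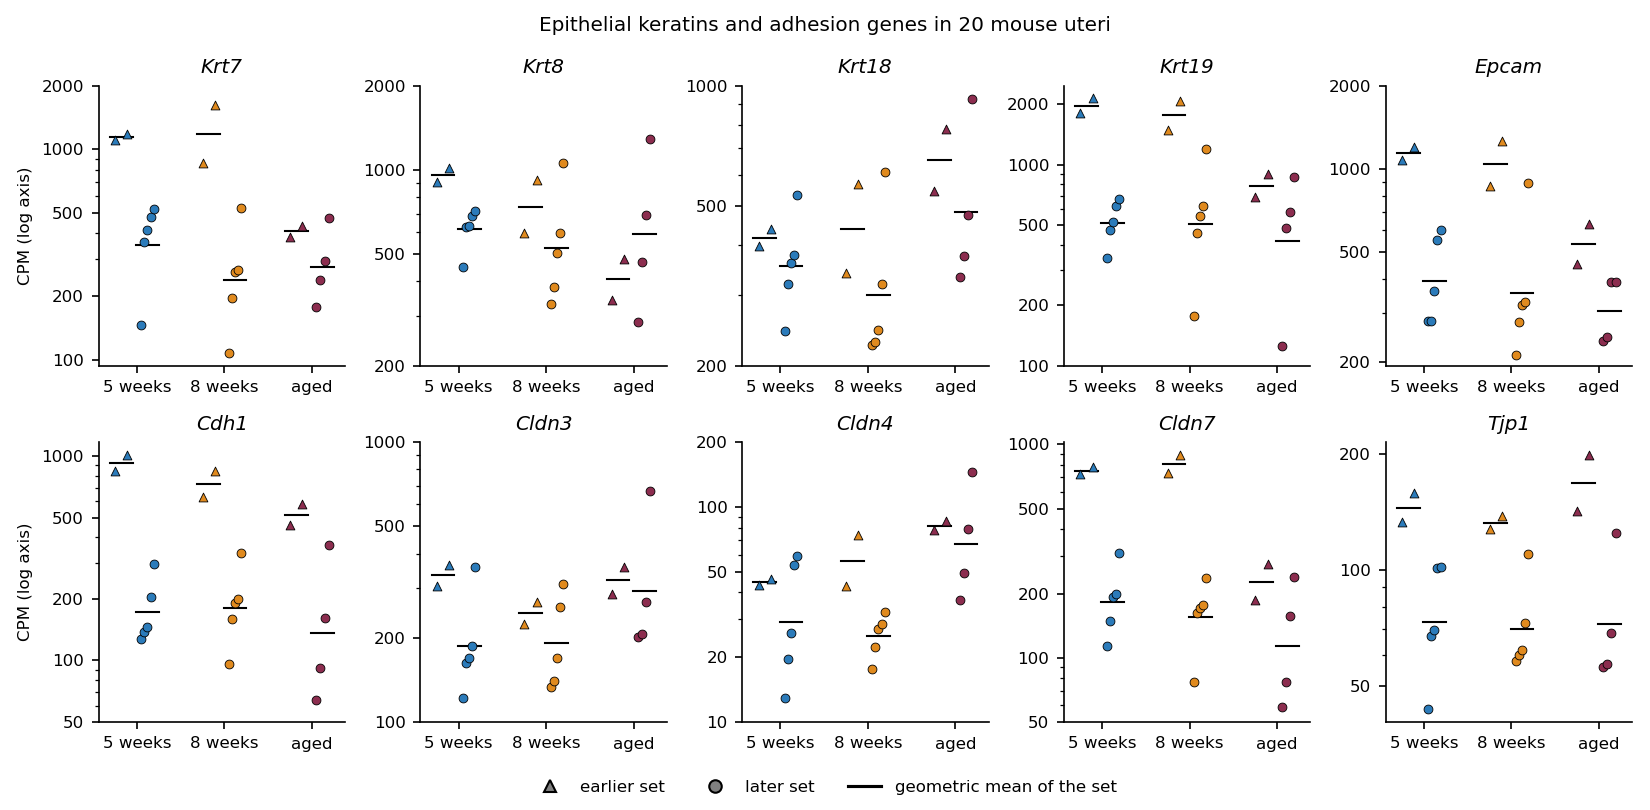
CPM of each member in 20 uteri (log axis), by age; triangles are libraries of the earlier set, circles those of the later set, and bars the geometric mean of a set. Cldn4 is the member in which all 4 aged uteri of the later set lie above the 5 uteri at 8 weeks, while in Cldn7 both aged triangles, at 187 and 275 CPM, lie far below the young triangles, at 723 to 894 CPM.

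In aged uteri compared with uteri at 8 weeks, 1 of the 10 members passed the test, Cldn4, which was higher. All fold changes were fitted with limma on log2(CPM + 1) with the set as a covariate, and p-values were adjusted over all 12791 genes by the method of Benjamini and Hochberg. A member was called at an adjusted p under 0.05. In this comparison 17.2% of all genes were called, so a share of 1 in 10 is no more than the background. The median log2 fold change of the members was -0.25, against 0.05 for all genes, with 4 members positive and 6 negative.

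Against uteri at 5 weeks, 2 of the 10 members passed, with Cldn4 higher and Cldn7 lower in aged uteri, where 22.1% of all genes were called. The median over the members was -0.46, against 0.09 for all genes, again with 4 positive and 6 negative. The same aged libraries enter both comparisons. Between uteri at 8 weeks and at 5 weeks none of the members passed, and 0% of all genes did in limma, while 139 genes had an unadjusted p under 0.05. The members' log2 fold changes there were small, from -0.39 for Krt7 to -0.05 for Cdh1, and all 10 were negative.

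**Figure D2:**
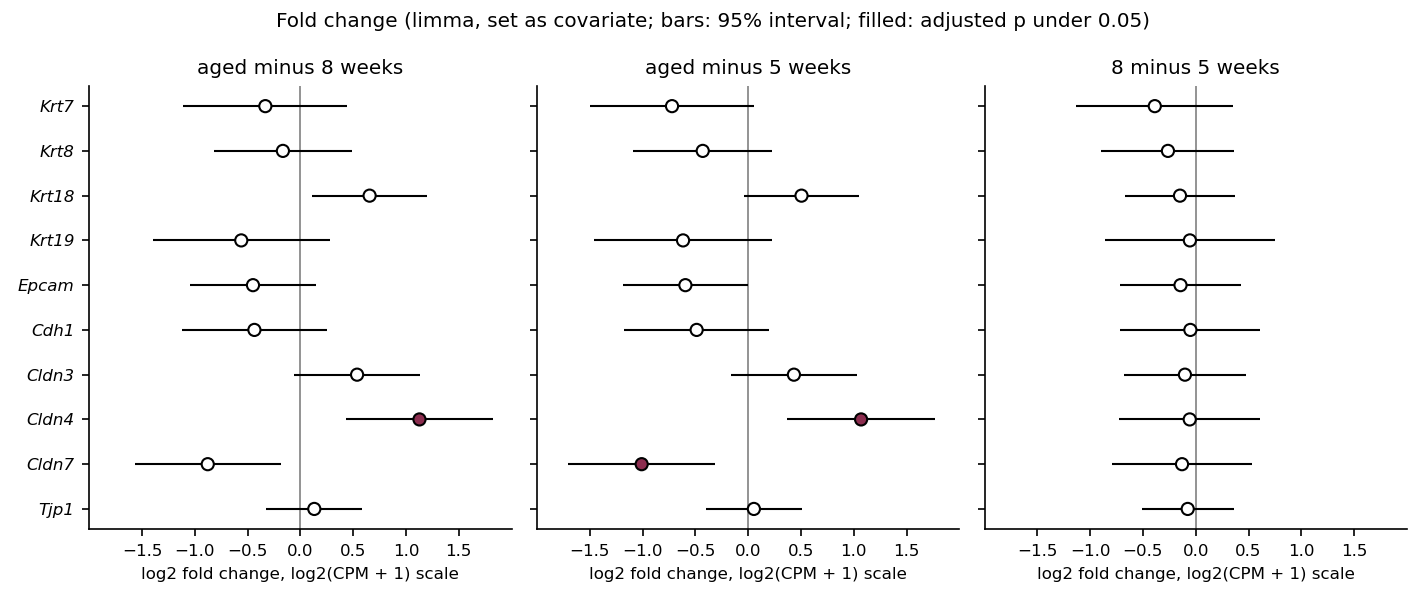
Log2 fold change of each member in the 3 comparisons on the log2(CPM + 1) scale, from limma with the set as covariate; bars are 95% confidence intervals and filled points have an adjusted p under 0.05. Filled points are Cldn4 in both comparisons of aged uteri, at 1.13 and 1.07, and Cldn7 in aged minus 5 weeks, at -1.01.

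Among the claudins, Cldn4, a sealing claudin that also binds the toxin of Clostridium perfringens, was the member that rose. It measured 86.1 and 77.8 CPM in the 2 aged uteri of the earlier set, against 74.0 and 42.8 CPM at 8 weeks and 43.3 and 46.2 CPM at 5 weeks. In the later set it measured 49.2, 36.8, 78.6 and 145 CPM in aged uteri, against 28.5, 22.3, 32.5, 27.2 and 17.7 CPM at 8 weeks. At 5 weeks in that set it measured 59.0, 26.0, 53.6, 12.9 and 19.6 CPM. The aged values lay above all 8-week values within each set, without overlap, and in the later set 2.07% of all genes did so and in the earlier set 36.8%. Aged and 5-week values overlapped in the later set, where 5w replicates 3 and 5 were above aged replicates 4 and 5. Over both sets Cldn4 averaged 78.9 ± 37.7 CPM in aged uteri (SD, n = 6), against 35.0 ± 18.9 at 8 weeks and 37.2 ± 17.7 at 5 weeks (SD, n = 7 each). The log2 fold change was 1.13 ± 0.33 (SE) against 8 weeks, with an adjusted p of 0.0262, and 1.07 ± 0.33 against 5 weeks, with an adjusted p of 0.0274 (limma). Leaving out 8w replicate 2 (limma adjusted p = 0.0540), the aged uterus of replicate 6 (0.0533) or that of replicate 7 (0.0649) ended the first call. The second was lost without 5w replicate 1, 6 or 7 or aged replicate 6 or 7, at adjusted p-values of 0.0504 to 0.0705. With columns attached by file, the first had an adjusted p of 0.0696 and the second of 0.0191. Within either set alone neither passed, at adjusted p-values of 0.0657 to 0.175.

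Cldn7, a claudin that also sits along the basolateral membrane, fell against 5 weeks. It measured 187 and 275 CPM in aged uteri of the earlier set, against 738 and 894 CPM at 8 weeks and 723 and 783 CPM at 5 weeks. Across the later set it measured 77.3, 58.5, 156 and 239 CPM in aged uteri, against 162, 237, 177, 77.2 and 171 CPM at 8 weeks. The 5-week values of that set were 114, 149, 308, 192 and 198 CPM. Both aged uteri of the earlier set were below every young uterus of that set, while in the later set the groups overlapped. The log2 fold change was -1.01 ± 0.33 (SE) against 5 weeks, with an adjusted p of 0.0348, and -0.88 ± 0.33 against 8 weeks, with an adjusted p of 0.074 (limma). Leaving out any one of 9 libraries, aged replicates 1, 2, 4 and 5 and 5w replicates 1, 2, 5, 6 and 7, took the adjusted p of the comparison with 5 weeks above 0.05, to at most 0.0981. With columns attached by file it was 0.117. Against 8 weeks the adjusted p was 0.0468 with quantile normalization, and it was 0.0142 to 0.0483 without aged replicate 6, aged replicate 7 or 8w replicate 6.

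Cldn3, the neighbour of Cldn4, did not pass in either comparison. It ranged from 201 to 667 CPM with a median of 277 in aged uteri, against 133 to 311 with a median of 225 at 8 weeks and 122 to 365 with a median of 188 at 5 weeks. The highest value was that of aged replicate 7, and the groups overlapped. Its log2 fold change was 0.54 (95% interval -0.06 to 1.14) against 8 weeks and 0.43 (-0.16 to 1.03) against 5 weeks.

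A ratio of 2 members within a library does not depend on the library total. Cldn7 relative to Cldn3 was lower in aged uteri. The ratio of their CPM values was 0.521 and 0.963 in aged uteri of the earlier set, against 3.28 and 3.34 at 8 weeks and 2.36 and 2.14 at 5 weeks. In the later set it ran from 0.283 to 0.580 in 4 aged uteri, with a median of 0.372, against 0.579 to 1.22, with a median of 0.761, in 5 uteri at 8 weeks. At 5 weeks in that set it ran from 0.669 to 1.22, with a median of 1.06. In each set aged and 5-week uteri did not overlap, and in the later set aged replicate 6, at 0.580, reached the lowest 8-week uterus, at 0.579. The difference in log2 ratio was -1.41 against 8 weeks (p = 0.00265) and -1.42 against 5 weeks (p = 0.00132, the smallest p this design allows), by exact two-sided permutation within the sets. Both had an adjusted p of 0.0317 over the 24 tests of 8 pairs in 3 comparisons. These were the only 2 of the 24 past 0.05. The adjusted p was above 0.05 without any one of 7 libraries for 8 weeks and 4 for 5 weeks, at 0.0571 to 0.0714. The 7 are aged replicate 5, 8w replicates 3, 4 and 5, and 5w replicates 4, 5 and 7, and the 4 are aged replicate 5 and the same 5-week replicates. The 5-week uteri do not enter the test against 8 weeks. Without each of those 3 its difference stayed at -1.41, and only the adjustment over the 24 tests moved. Leaving out a uterus of the groups compared also leaves fewer permutations, so the smallest possible p is larger. With any 1 library left out, the difference stayed between -1.56 and -1.21 for 8 weeks and between -1.54 and -1.28 for 5 weeks. With columns attached by file the adjusted p was 0.109 for 8 weeks and 0.0317 for 5 weeks. Cldn4 relative to Cldn3 differed by 0.58 (adjusted p = 0.134, exact permutation) and 0.65 (adjusted p = 0.143, exact permutation).

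**Figure D3:**
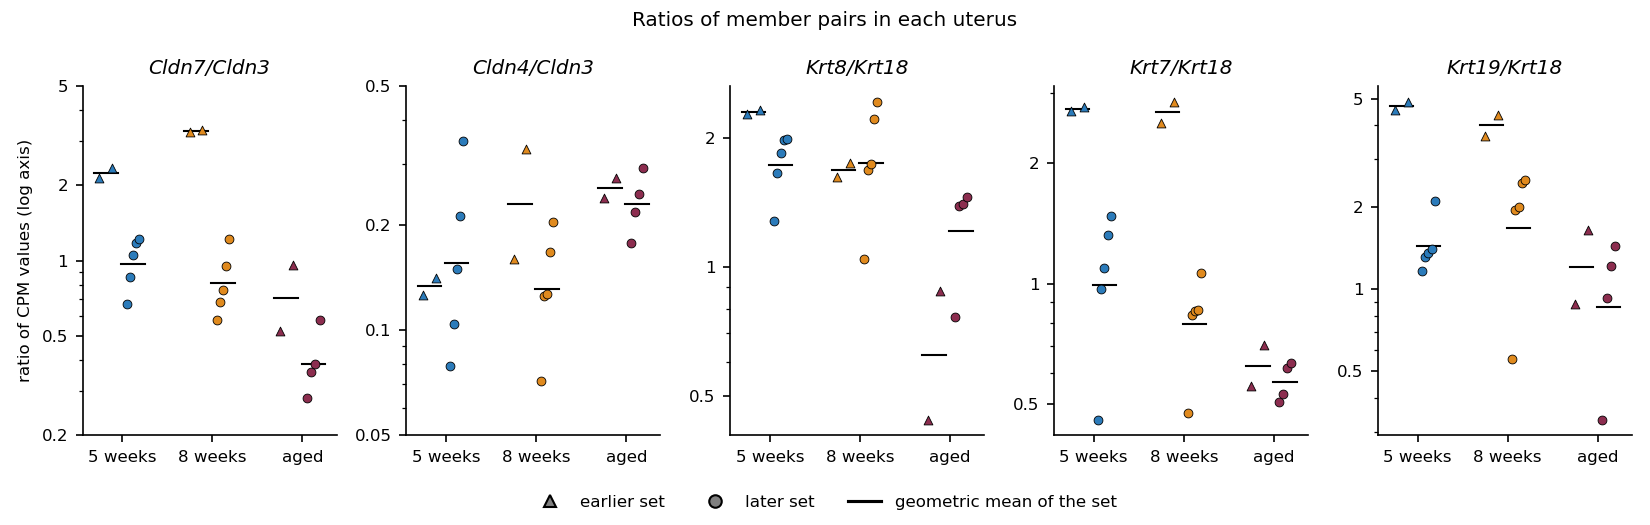
Ratio of CPM values of 5 member pairs in each uterus (log axis), by age; triangles are the earlier set, circles the later set, bars the geometric mean of a set. The aged uteri lie at 0.283 to 0.963 for Cldn7 relative to Cldn3. For Krt7 relative to Krt18 they lie at 0.554 and 0.703 in the earlier set, where the young uteri lie at 2.53 to 2.85. In the later set they lie at 0.507 to 0.634 and overlap the young uteri. Those lie at 0.475 to 1.07 at 8 weeks and at 0.458 to 1.48 at 5 weeks.

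None of the 4 keratins passed in any comparison, and their estimates differed in sign. Krt18, the type I partner of Krt8, measured 782 and 546 CPM in aged uteri of the earlier set, against 341 and 568.2 at 8 weeks and 398 and 438 at 5 weeks. Across the later set it measured 334, 375, 476 and 931 CPM in aged uteri, against 246, 609, 229, 226 and 319 at 8 weeks, with 5-week values of 244 to 535. Aged and young values overlapped in the later set, and in the earlier set aged replicate 2 was below 8w replicate 2. The log2 fold change of Krt18 was 0.66 ± 0.26 (SE) against 8 weeks (adjusted p = 0.0865, limma) and 0.51 ± 0.26 against 5 weeks (adjusted p = 0.164, limma). Against 8 weeks it was past the threshold with quantile normalization (adjusted p = 0.0307) and without 8w replicate 4 (0.0223), the 8-week uterus with the highest value.

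Krt8 had estimates below 0, at -0.17 ± 0.31 (SE) against 8 weeks and -0.43 ± 0.31 against 5 weeks. It ranged from 287 to 1291 CPM in aged uteri, against 333 to 1062 at 8 weeks and 450 to 1016 at 5 weeks, and the groups overlapped over nearly the whole range. Krt19, the smallest keratin, and Krt7 had estimates of -0.56 ± 0.40 and -0.33 ± 0.37 against 8 weeks, and of -0.62 ± 0.40 and -0.72 ± 0.37 against 5 weeks. Krt19 ranged from 125 to 898 CPM in aged uteri, against 177 to 2075 at 8 weeks and 342 to 2134 at 5 weeks. Krt7 ranged from 177 to 472 CPM in aged uteri, against 107 to 1620 at 8 weeks and 146 to 1183 at 5 weeks. The highest young values of both were from the earlier set.

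Relative to Krt18, each of the other keratins had a lower mean log2 ratio in aged uteri, but no adjusted p was under 0.05. The Krt8 to Krt18 ratio of CPM values was 0.441 and 0.881 in the aged uteri of the earlier set, against 1.75 and 1.62 at 8 weeks and 2.28 and 2.32 at 5 weeks. In the later set it was 1.41, 0.766, 1.45 and 1.39 in aged uteri, against 1.04 to 2.43 with a median of 1.74 at 8 weeks and 1.28 to 1.99 with a median of 1.85 at 5 weeks. Aged and young uteri overlapped in the later set alone. With 2 libraries per age in the earlier set, the smallest p allowed there is 0.333 (exact permutation), so the sets cannot be compared by overlap. The log2 ratio differed by -0.80 against 8 weeks (p = 0.0225, adjusted p = 0.0771, exact permutation) and by -0.93 against 5 weeks (p = 0.00794, adjusted p = 0.0635, exact permutation). Krt7 relative to Krt18 differed by -0.98 (p = 0.0159, adjusted p = 0.0635) and -1.21 (p = 0.0106, adjusted p = 0.0635), and Krt19 relative to Krt18 by -1.20 (p = 0.0344, adjusted p = 0.103) and -1.12 (p = 0.0159, adjusted p = 0.0635), by the same exact permutation. Between 8 and 5 weeks the 3 ratios differed by -0.24 to 0.09, with adjusted p-values of 0.590 to 0.959 (exact permutation).

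Epcam and Cdh1 had estimates below 0 and did not pass. Epcam was at -0.45 ± 0.28 (SE) against 8 weeks and at -0.59 ± 0.28 against 5 weeks, where its adjusted p was 0.138 (limma). It measured 450 and 632 CPM in aged uteri of the earlier set, against 864 and 1264 at 8 weeks and 1082 and 1206 at 5 weeks, and 238 to 389 CPM in aged uteri of the later set, against 211 to 887 at 8 weeks and 281 to 598 at 5 weeks. Cdh1 was at -0.44 ± 0.33 against 8 weeks and at -0.49 ± 0.33 against 5 weeks. Without aged replicate 7, Cdh1 passed against 5 weeks, at -0.80 with an adjusted p of 0.0476 (limma). It measured 460 and 583 CPM in aged uteri of the earlier set, against 630 and 844 at 8 weeks and 1018 and 843 at 5 weeks, and 63.9 to 369 CPM in those of the later set, against 95.6 to 334 at 8 weeks and 127 to 297 at 5 weeks. Both genes were below every young uterus in the earlier set and overlapped in the later set. Their ratio to each other differed by -0.02 and -0.10 on the log2 scale between aged and 8-week or 5-week uteri (adjusted p = 0.962 and 0.959, exact permutation). Tjp1, the scaffold that is not confined to epithelium, had estimates near 0, at 0.13 (95% interval -0.32 to 0.58) against 8 weeks and 0.05 (-0.40 to 0.51) against 5 weeks. It ranged from 55.8 to 198 CPM in aged uteri, against 58.0 to 138 at 8 weeks and 43.5 to 158 at 5 weeks.

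Several members differed between the sets of libraries. In the limma fit the set term was called for 6 of the 10 members, near the 58.7% of all genes called either way. All 6 were lower in the later set, and the share of all genes called lower was not counted. The difference was -2.11 for Cdh1, -1.82 for Cldn7, -1.56 for Krt19, -1.54 for Krt7, -1.31 for Epcam and -1.02 for Tjp1 on the log2 scale. For these 6 the estimate was larger in size than either of their estimates for age. Cdh1 measured 63.9 to 369 CPM across the later set (14 libraries), against 460 to 1018 CPM across the earlier set (6 libraries), with no overlap. Tjp1 did not overlap either, at 43.5 to 125 CPM against 128 to 198 CPM. The share of all genes without overlap between the sets was not counted. Krt8, Krt18, Cldn3 and Cldn4 did not pass for the set, with estimates of -0.22, -0.40, -0.45 and -0.68.

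In the earlier set, both aged uteri lay below both 8-week uteri in Krt7, Krt8, Krt19, Epcam, Cdh1 and Cldn7, 6 of the 10, where 31.7% of all genes did so, and above them in Cldn3, Cldn4 and Tjp1, where 36.8% did. Against 5 weeks the same 6 were below, with a background of 29.9%, and Krt18 and Cldn4 were above, with a background of 38.7%. In the later set the 1 member that did not overlap with 8 weeks was Cldn4, which was above, where 2.07% of all genes were above and 3.16% below. None was apart from 5 weeks, where 3.07% of all genes were above and 4.33% below. From a fit with separate means for each age and set, Cldn7 was at -1.83 ± 0.56 (SE) in the earlier set and -0.44 ± 0.38 in the later set against 8 weeks. Krt7 was at -1.53 ± 0.61 and 0.21 ± 0.41, and Cldn4 at 0.53 ± 0.61 and 1.39 ± 0.41. The difference between the sets did not pass for any member, with unadjusted p-values of 0.03 for Krt7 and 0.0544 for Cldn7 (adjusted p = 0.289 and 0.356, limma). Of all 12791 genes, 3 (0.0235%) passed that test against 8 weeks and 0 against 5 weeks. With 2 libraries per age in the earlier set, not passing does not show that the members changed alike in both sets.

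**Figure D4:**
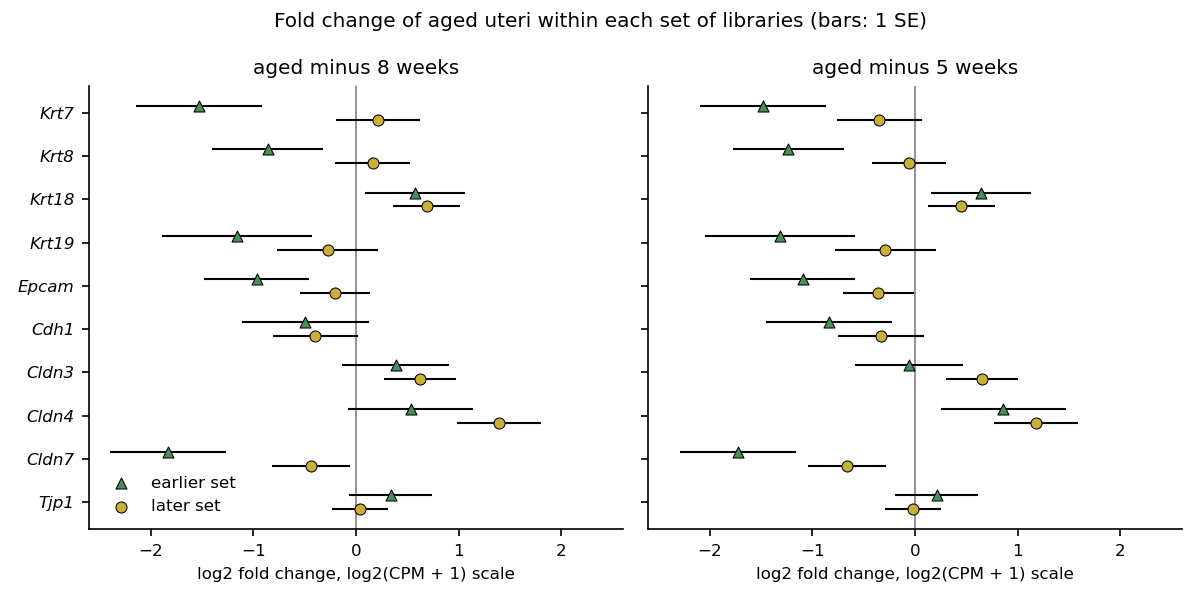
Log2 fold change of aged uteri within the earlier set (triangles) and within the later set (circles), against 8 weeks and against 5 weeks, on the log2(CPM + 1) scale; bars are 1 SE. Krt7, Cldn7 and Epcam lie further below 0 in the earlier set, while Krt18 lies at 0.57 and 0.69 against 8 weeks in the earlier and the later set.

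From library to library many members varied together. Over the 20 libraries, with log2(CPM + 1) centred within sets, 18 of the 45 pairs had a positive Pearson correlation with an adjusted p under 0.05 (permutation within sets, 100000 resamples), and none had a negative one. The closest pair was Krt8 and Krt19 (r = 0.88, Spearman rho = 0.88, r = 0.87 without the 2 farthest libraries), followed by Cdh1 and Cldn7 (r = 0.84, rho = 0.85, r = 0.82 without the 2 farthest). Both had the smallest p the resampling can give before adjustment, and r was 0.85 and 0.92 within the later set and 0.98 and 0.84 within the earlier set of 6. Krt8 was correlated in this way with 6 of the 9 other members, among them Krt7 at 0.70, Epcam at 0.76 and Cldn7 at 0.78.

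Over the 20 libraries Krt18, Cldn4 and Tjp1 stood outside that group. Krt18 passed with 1 other member, Cldn3 (r = 0.69, rho = 0.57, adjusted p = 0.00754 for r and 0.0409 for rho, permutation). The r of this pair was 0.72 in the later set and 0.52 in the earlier set, and it fell to 0.39 without the 2 farthest libraries. With Krt7, Krt8, Krt19, Epcam, Cdh1 and Cldn7, the r of Krt18 was 0.39 to 0.72 in the later set. In the earlier set of 6 it was -0.73 to -0.47. Cldn4 passed with Cldn3 alone (r = 0.64, rho = 0.48, adjusted p = 0.0208 for r and 0.115 for rho, permutation), and its r was 0.31 without the 2 farthest. Tjp1 passed with none. Krt8 and Krt18, which pair in filaments, had an r of 0.43 (rho = 0.36, adjusted p = 0.148, permutation), with 0.72 in the later set and -0.57 in the earlier set. Cldn4 and Cldn7 had an r of -0.15 (adjusted p = 0.592, permutation). The points share libraries, ages and depth, and the age groups were not centred.

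**Figure D5:**
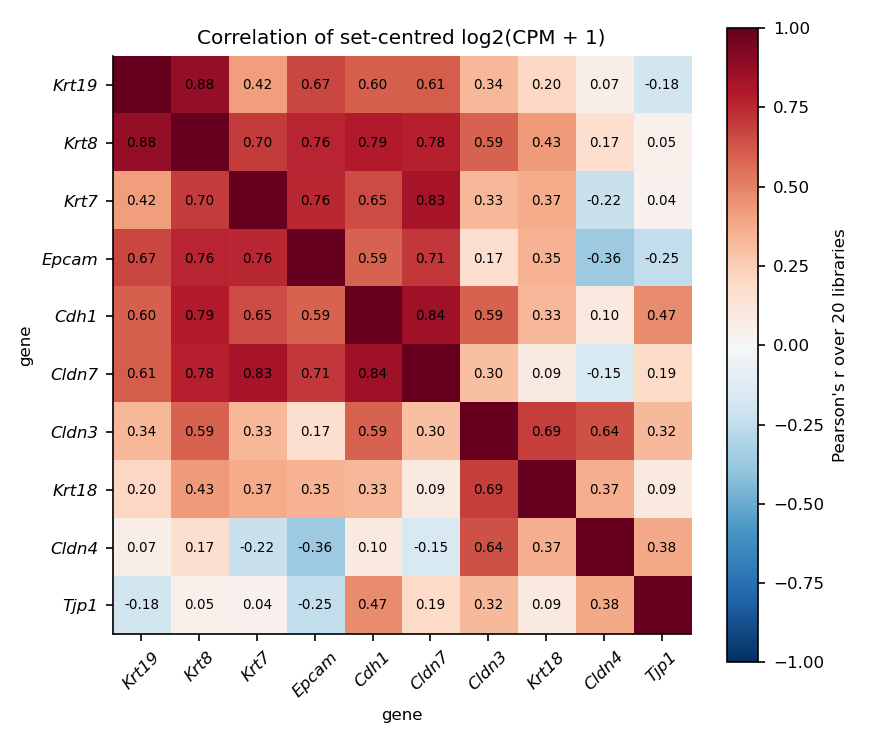
Pearson correlation of each pair of members over 20 libraries, from log2(CPM + 1) centred within each set. Krt19, Krt8, Krt7, Epcam, Cdh1 and Cldn7 form a block with r of 0.42 to 0.88, and Cldn4 and Epcam have the lowest value, -0.36.

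The genes most like each member in pattern, by the same centred r over 20 libraries, are given as a description. For Cldn4 they were Ajuba (0.92), a LIM protein of cell junctions, and Pwwp2b (0.92). For Cdh1 they were Clint1 (0.92) and St14 (0.92), a membrane protease of epithelium, and for Krt19 Fuca2 (0.93) and Ctnnd1 (0.90), the p120 catenin that binds E-cadherin. For Krt18 they were C2cd4a (0.90) and Grb7 (0.90), and for Krt8 Tmem102 (0.91) and Macc1 (0.90). Krt7 was most like 2610528J11Rik (0.91) and Igsf5 (0.90), a junctional adhesion molecule, Epcam most like Ebp (0.91) and Gm6548 (0.88), Cldn3 most like C77080 (0.91) and Tmem184a (0.90), and Cldn7 most like Alg9 (0.92) and Rhbdl2 (0.92). Tjp1 stood with Ash1l (0.95) and Ddx6 (0.95), which are not epithelial genes.

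Beyond the members, Cldn8, Cldn5, Cldn1 and Patj were the other tight junction genes that rose in aged uteri, against both 8 and 5 weeks. They are 4 of the 25 tested of 30 listed, and none fell, so the share called either way was no higher than the 17.2% and 22.1% of all genes. Of all genes 8.64% were called higher against 8 weeks and 12.7% against 5 weeks. The genes called higher were thus a larger share of this list than of all genes, which was not tested. The median of the 25 was 0.33 against 8 weeks, with 22 positive and 3 negative, and 0.21 against 5 weeks, with 17 positive and 8 negative. Cldn8, a claudin of tight epithelia, measured 10.5 and 20.8 CPM in aged uteri of the earlier set, against 1.05 and 2.13 at 8 weeks and 2.72 and 3.53 at 5 weeks. Across the later set it measured 13.3 to 59.4 CPM in aged uteri, against 3.67 to 7.43 at 8 weeks and 1.74 to 15.5 at 5 weeks. Aged and 8-week uteri were thus apart in each set. Its log2 fold change was 2.29 ± 0.38 (SE) against 8 weeks (adjusted p = 0.000596, limma) and 2.00 ± 0.38 against 5 weeks (adjusted p = 0.00114, limma). It was called in each of 31 alternative settings, including each set alone and columns attached by file. Cldn1 rose by 1.72 ± 0.51 and 1.53 ± 0.51, and the polarity scaffold Patj by 0.72 ± 0.24 and 0.74 ± 0.24. Cldn5, the claudin of blood vessels, rose by 1.62 ± 0.32 and 1.80 ± 0.32, while the other 7 of 8 vessel markers did not pass. All 4 had the same direction in each setting. Cldn5 was called in 30 of 31 settings in both comparisons, Cldn1 in 26 against 8 weeks and 18 against 5 weeks, and Patj in 15 and 19.

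In the other junction lists, too, the share called either way was no higher than among all genes. Of 13 adherens junction genes tested of 14 listed, Cdh2, or N-cadherin, rose against 8 weeks (0.94 ± 0.29, adjusted p = 0.0315, limma) and against 5 weeks (1.09 ± 0.29, adjusted p = 0.0116, limma), and Cdh3, or P-cadherin, rose against 5 weeks (0.74 ± 0.25). Cdh2 was called in 19 and 29 of the 30 settings that tested it, and Cdh3 in 19 of 31. None of 9 desmosome genes tested of 12 listed passed, the lowest adjusted p-values being those of Ppl against 8 weeks (0.79 ± 0.41, adjusted p = 0.191, limma) and of Perp against 5 weeks (-1.03 ± 0.39, adjusted p = 0.0659, limma). Of 13 genes on a list of other keratins 3 were tested, and none passed. They were the keratins Krt10 and Krt80, and Krtcap3, a keratinocyte-associated protein that is not a keratin. The lowest adjusted p-values were those of Krt80 against 8 weeks (0.615) and of Krt10 against 5 weeks (0.499), from limma. Krt5 and Krt14, keratins of stratified epithelium on that list, were not among the genes listed in every library.

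Of 17 transcription and splicing factors of epithelium tested, of 19 listed, 2 were called against 8 weeks and 3 against 5 weeks, below the 17.2% and 22.1% of all genes. Foxa2, which gland formation in the mouse uterus requires, rose by 1.54 ± 0.40 against 8 weeks and by 1.72 ± 0.40 against 5 weeks. Its levels were low, and in the earlier set it measured 1.96 and 7.32 CPM in aged uteri, against 2.90 and 4.59 at 8 weeks. At 5 weeks in that set it measured 1.24 and 2.08 CPM. Across the later set it measured 5.56 to 33.3 CPM in aged uteri, against 1.24 to 2.28 at 8 weeks and 1.12 to 4.61 at 5 weeks. Snai2, a repressor of epithelial genes that binds the E-box, fell by 1.22 against 8 weeks and by 1.23 against 5 weeks, with an SE of 0.37 each. Ovol1, a repressor of mesenchymal genes, fell by 0.92 against 5 weeks. Foxa2 was called in 29 and 30 of 31 settings, Snai2 in 20 and 27, and Ovol1 in 22. Of these settings 20 left out 1 library. In the earlier set alone the Foxa2 estimate against 8 weeks was 0.09 and did not pass. Of 15 membrane protease and apical genes tested, of 16 listed, 1 was called in each comparison, also below those shares. It was Prom1, a protein of apical membrane protrusions, which rose by 1.81 ± 0.41 and 2.03 ± 0.41. It measured 663 and 2052 CPM in aged uteri of the earlier set, against 196 and 400 at 8 weeks and 379 and 395 at 5 weeks. Across the later set Prom1 measured 372 to 735 CPM in aged uteri, against 86.5 to 663 at 8 weeks and 67.9 to 210 at 5 weeks. There the aged values overlapped those at 8 weeks and lay above those at 5 weeks, where 3.07% of all genes did so.

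Among markers of other cell types, single genes passed in most lists, and the counts are to be read against the 17.2% of all genes called against 8 weeks and the 22.1% called against 5 weeks. Of 11 stroma markers, Col6a3 fell against 8 weeks and Col1a1 and Col1a2 against 5 weeks, by 1.61, 1.15 and 0.89 on the log2 scale, which is 1 and 2 of 11. The list was mixed, with medians of -0.27 and -0.10 and with estimates above 0 that did not pass for Dcn (0.44 and 0.66), Pdgfrb (0.42 and 0.72) and Lum (0.38 and 0.72). Of 9 smooth muscle markers, Smtn and Lmod1 rose against 5 weeks, at 1.28 ± 0.37 and 1.36 ± 0.47, and none passed against 8 weeks. The Lmod1 call was lost in 8 of the 20 fits that left out 1 library. All 7 mesothelium markers tested, of 9 listed, had positive estimates in both comparisons of aged uteri, with medians of 0.73 and 0.79, and none passed, the lowest adjusted p-values being those of Bnc1 (0.113 and 0.0888, limma). Their summed level was 667 to 1424 CPM in aged uteri of the earlier set, against 221 to 363 at 8 weeks and 115 to 492 at 5 weeks, and 112 to 384 CPM in aged uteri of the later set, against 129 to 421 at 8 weeks and 157 to 326 at 5 weeks. The leukocyte marker Csf1r rose in both comparisons by 0.95 ± 0.32 and 1.15 ± 0.32, 1 of 6 tested of 8 listed. Its call against 8 weeks was lost in 13 of the 20 fits that left out 1 library, with adjusted p-values of up to 0.121 (limma). Of 3 gland and ciliated markers tested, of 9 listed, Ovgp1, an oviduct glycoprotein, rose against 5 weeks (3.40 ± 1.11, adjusted p = 0.0334, limma), beside Foxa2. The Ovgp1 call was lost in 7 of the 20 such fits, with estimates of 2.43 to 4.32, and the third gene, Sox9, had estimates of -0.69 and -0.63 that did not pass. All 4 red blood cell genes tested rose against 8 weeks, by 1.58 to 1.90, and none passed against 5 weeks. The summed level of the 10 members was 3932 to 4362 CPM in aged uteri of the earlier set, against 5954 to 8623 at 8 weeks and 7550 to 8148 at 5 weeks, and 1685 to 5496 CPM in aged uteri of the later set, against 1870 to 5242 at 8 weeks and 2223 to 3498 at 5 weeks. The part of these other cell types in the members' values was not tested.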

How the data were processed

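Whole uterus RNA was measured in 21 samples, of which 20 have a column of values. The authors deposited gene tables in CPM, each column summing to 1000000. The build GRCm38 and the tools fastp, STAR, featureCounts and edgeR are named, with no versions, per the submitters' processing notes. Every value was a whole number of reads within a tolerance of 1e-06. Columns were taken as the sample named in the header. Values were fitted as log2(CPM + 1) with limma 3.58.1 (lmFit, eBayes with trend; age and set), with Benjamini-Hochberg adjustment over 12791 genes. No filter was applied. The fit was tested on simulated data. Ratios used exact two-sided permutation of ages within sets. Exon lengths and positions are from GENCODE release M21, promoters from RefSeq on GRCm38.p6. The members, the lists and the tests were chosen with earlier results of these data known. All members are named. Of each other list, up to 4 called genes per comparison are named, or the one with the lowest adjusted p. Replicates are separate samples by their labels. Alternatives covered pseudocount, filter, scaling, the set term, single sets, the replicate block, columns by file and leaving out each library.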

Additional observations from a re-analysis of the deposited data

Results flagged for a closer look

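Values that stood apart from their group were sought by Dixon's test at the 95% level on the members' log2(CPM + 1) and on the log2 ratios, in each age group over both sets and within the later set, in 108 groups of values. Chance flags about 1 in 20 such groups, and 6 were found. Krt19 was low in aged replicate 5, at 125 CPM, with a gap of 0.683 of the group's range. In the same uterus the Krt8 to Krt18 ratio was 0.766, below the other 3 aged uteri of the later set at 1.39 to 1.45, with a gap of 0.926. The Krt19 to Krt18 ratio was low in 8w replicate 7, at 0.553, with a gap of 0.612 over both sets and 0.835 within the later set. Without that uterus the ratio's difference between aged and 8-week uteri was -1.49, with an adjusted p of 0.0286 (exact permutation). Within the later set at 5 weeks, Krt7 was low in 5w replicate 3, at 146 CPM, with a gap of 0.713, and Krt8 in 5w replicate 4, at 450 CPM, with a gap of 0.718. 5w replicate 3 is also a library whose header and file name different ages. No member passed the test of a difference in age change between the sets. Of all genes, 0.0235% passed it against 8 weeks and 0% against 5 weeks.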

How the results depend on the processing

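Between aged and 8-week uteri the member count of 1 became 3 with quantile normalization (Krt18, Cldn4 and Cldn7), 4 in the earlier set alone (Krt7, Krt19, Epcam and Cldn7, all lower), and 0 in the later set alone, without the set term and with columns attached by file. All genes called were then 3613 in the earlier set, 183 in the later set, 969 without the set term and 565 by file, against 2196 in the main fit. With quantile normalization the gene count moved by no more than 1.5 times. Leaving out 1 library gave 0 to 2 members and 1309 to 2617 genes, the gene count moving by over 1.5 times without aged replicate 1, 8w replicate 1 or 8w replicate 2. Between aged and 5-week uteri the member count of 2 became 5 in the earlier set alone (Krt7, Krt8, Krt19, Epcam and Cldn7) and 1 by file. It was 0 in the later set alone and without the set term. All genes called were 523 in the later set, 1380 without the set term and 2014 by file, against 2825 in the main fit. In the earlier set alone the gene count moved by no more than 1.5 times. Leaving out 1 library gave 0 to 2 members and 1982 to 3294 genes. Between 8 and 5 weeks every setting gave 0 members and 0 genes.

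The Cldn7 to Cldn3 difference was -2.22 and -1.66 in the earlier set alone, where the smallest p allowed is 0.333, and -1.06 and -1.32 in the later set alone, for 8 and 5 weeks in turn. Against 8 weeks it was -1.35 without the set term and -1.30 by file, neither past the threshold. By file, Krt7 to Krt18 passed at -1.40 (aged minus 5 weeks) and -0.47 (8 minus 5 weeks), and Cldn4 to Cldn3 at 0.87 (aged minus 5 weeks). Without the set term Krt8 to Krt18 passed at -0.94 (aged minus 5 weeks). Leaving out 1 library, Cldn7 to Cldn3 ran from -1.56 to -1.21 against 8 weeks and from -1.54 to -1.28 against 5 weeks, Krt8 to Krt18 from -0.95 to -0.61 and from -1.04 to -0.70, Krt7 to Krt18 from -1.14 to -0.80 and from -1.43 to -1.06, and Krt19 to Krt18 from -1.49 to -0.92 and from -1.31 to -0.86. Each keratin ratio passed in at least 1 setting that left out a single library, one of 8w replicate 6, 8w replicate 7, 5w replicate 3, 5w replicate 6 or aged replicate 4. Against 5 weeks, Krt8 to Krt18 passed without 8w replicate 6 or 7 with its difference unchanged at -0.93. Krt7 to Krt18 did so without 8w replicate 7, unchanged at -1.21. The 8-week uteri do not enter these tests, and only the adjustment moved. The causes were not tested.

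No called member or ratio changed direction in any setting. Equal replicate numbers did not mark related libraries: within the later set the correlation of their deviations ran from -0.51 to 0.28. The fit with the replicate block called 1 member and 1637 genes between aged and 8-week uteri, and 2 members and 2413 genes between aged and 5-week uteri. A planned count test on recovered reads was not run. Low genes are not listed, so nothing is known of members of the lists that were not tested.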
